A study of Rattus norvegicus with 2 samples.

Results

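The genes described here serve the lysosome and autophagy in rat liver. There are 47 of them, listed by function: 9 cathepsins, 2 cystatins, 14 hydrolases and their activator proteins, 5 membrane proteins, 5 proton pump subunits, the transcription factor Tfeb and 11 autophagy genes. They were listed by name for their function, with earlier results of these data known, from 13667 genes that a probe used here could be matched to. The arrays compare senecionine with control. For the senecionine group, Sprague Dawley rats were given senecionine, a pyrrolizidine alkaloid that injures the liver, by the i.g. (intragastric) route at 35 mg/kg. The control rats of the same strain received sodium chloride. Livers of both groups were taken at 36 h, tissue of 3 animals was pooled in each group, and each pool was labelled with Cy3 and hybridised to 1 Agilent oligonucleotide array. The age and sex of the animals are not given in the sources used here. With 1 array per group there was no spread between samples to test against, so every difference is between 2 arrays of pools, and no p-value is given.

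Lysosomes are acid compartments in which hydrolases break down proteins, lipids and sugars delivered by endocytosis or by autophagy. In autophagy, a double membrane closes around cytoplasm or worn organelles and fuses with the lysosome. Hepatocytes are known for active autophagy, and the liver's macrophages and sinusoidal endothelial cells are known for abundant lysosomes. TFEB is a transcription factor that drives many lysosomal and autophagy genes through a short promoter motif, the CLEAR element.

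Signals are given as scaled signal, the background-subtracted spot intensity divided by the 75th percentile of all non-control spots on the same array. That percentile was 134 intensity units on the senecionine array and 101 on the control array. The scanner software marks each spot as detected where its signal is well above background. A gene was counted as measured where 1 and the same probe was detected on both arrays, and the brightest probe of this kind stands for it. The ± beside a log2 ratio is the scanner software's spot error carried to the ratio, which is technical error within the arrays. Signals of different probes were not compared with each other, because probes differ in brightness for the same amount of RNA.

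The lysosome and autophagy genes did not move together. Of the 47, 40 were measured, 3 were detected after senecionine alone, 1 on neither array, and 3 had no probe that could be used. Of the 40, 5 were higher after senecionine by 2-fold or more (Ctsl, Cd63, Atp6v1b2, Cstb and Becn1), 4 were lower by that size (Gm2a, Man2b1, Gaa and Cst3), and 31 lay within 2-fold. The 5 higher genes are 12.5% of those measured and the 4 lower genes 10%. Over all 7809 genes measured the same way, 11.2% were higher and 17.7% lower by 2-fold or more, so with these settings the share of higher genes was close to that of all genes. With detection on 1 array sufficing it was 11.6%, against 22.6% of all genes, with no filter on dim probes 11.4%, against 17.5%, and with normexp background correction 12.5%, against 7.88%. The median log2 ratio was -0.12 over the 40 genes and -0.14 over all measured genes. The quartiles of the 40 ratios were -0.45 and 0.55, and those of all ratios -0.74 and 0.45. In pools of whole liver, fewer cells of a type and less RNA per cell cannot be told apart. The control array also carried signal of neuron and glia markers, a summed scaled signal of 86.5 there, against 5.80 on the senecionine array. Tubb3 alone had 55.7 on the control array. The part of this neuron and glia signal in the ratios was not tested.

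**Figure D1:**
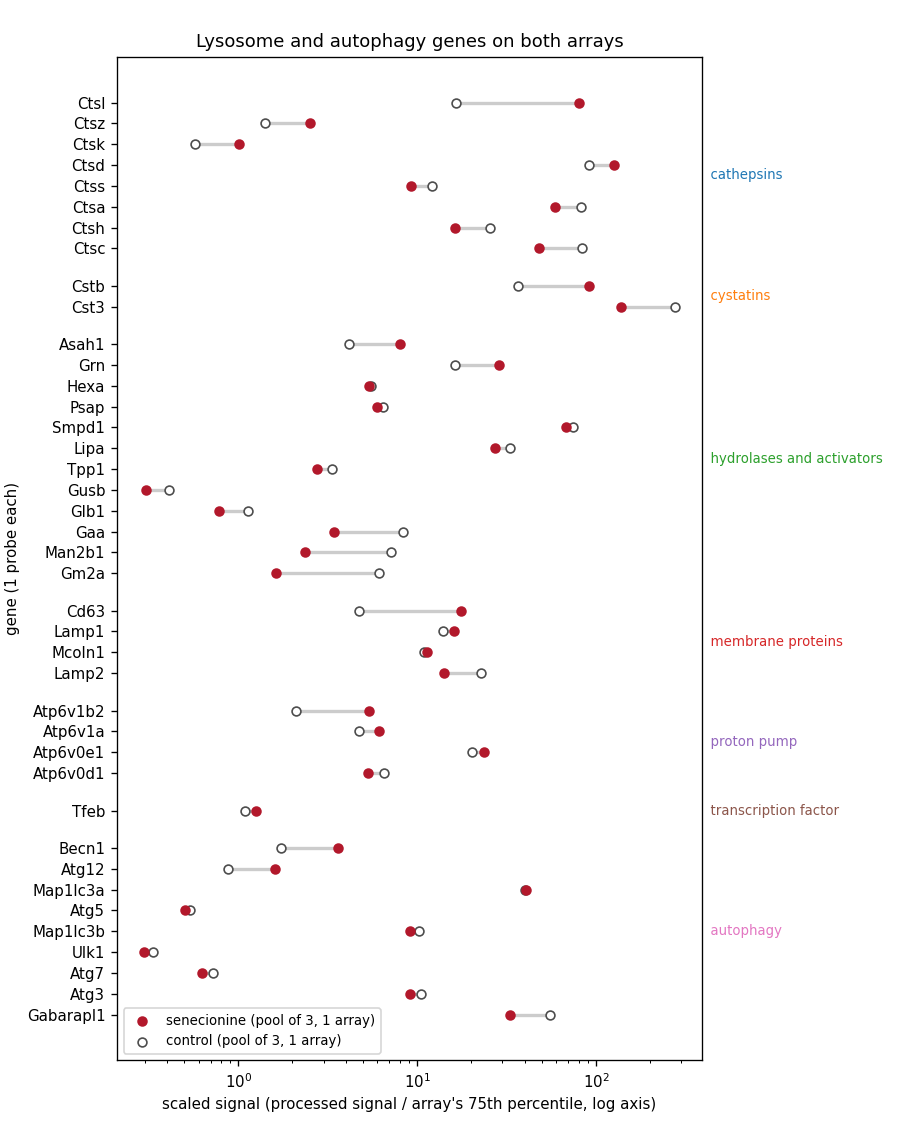
Scaled signal (log axis) of the 40 measured genes on the senecionine array (filled) and the control array (open), 1 probe per gene, grouped by role. The longest lines join the 2 signals of Ctsl (80.3 on the senecionine array, 16.6 on the control array), Gm2a (1.62 and 6.13) and Cd63 (17.6 and 4.74).

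Cathepsins are the proteases of the lysosome, most of them cysteine proteases. Of 8 measured, Ctsl alone passed 2-fold, on the higher side (12.5%, against 11.2% of all genes). None was lower by that size, against 17.7% of all genes. The median log2 ratio was 0.03. Ctsl, a cysteine endopeptidase that also cleaves procathepsins and matrix proteins, had a scaled signal of 80.3 on the senecionine array, against 16.6 on the control array. It was 4.84-fold higher (log2 ratio 2.28 ± 0.20), the highest ratio of the 40 genes and rank 152 from the top among all 7809. A further Ctsl probe lay on spots marked as non-uniform on both arrays and was left out of the comparison. Its scaled signals were 248 after senecionine and 131 in the control, a log2 ratio of 0.92 ± 0.20. Both probes were thus higher after senecionine, but the sizes differ, and with the marked spots kept the brighter probe places Ctsl within 2-fold.

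The other cathepsins parted. Ctsz, a carboxypeptidase, had scaled signals of 2.52 after senecionine and 1.41 in the control (log2 ratio 0.84 ± 0.21). Ctsk, the collagen-cleaving cathepsin of osteoclasts, had 1.01 and 0.57 on the same arrays (0.82 ± 0.23). Ctsd, the aspartic cathepsin, had 126 after senecionine and 91.1 in the control (0.47 ± 0.20). These 3 ratios exceeded their spot errors and stayed within 2-fold.

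On the lower side, Ctsc, the dipeptidyl peptidase that activates the serine proteases of neutrophil granules, had a scaled signal of 48.0 on the senecionine array and 83.3 on the control array, a log2 ratio of -0.80 ± 0.20. Ctsh, an aminopeptidase, had 16.2 after senecionine and 25.6 in the control (-0.66 ± 0.20). Ctsa, a carboxypeptidase that also shields lysosomal galactosidase and neuraminidase from breakdown, had log2 ratios of -0.49, -0.48 and -0.74 on its 3 probes. Ctss, the cathepsin of antigen-presenting cells that trims the invariant chain, had -0.40 and -0.23 on its 2 probes. All of these, too, lay within 2-fold. Ctsb, a major cathepsin of the liver, was represented by a single spot, marked as non-uniform on both arrays. Its scaled signal there was 413 after senecionine and 329 in the control (log2 ratio 0.33 ± 0.20), and it was not counted.

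The 2 cystatins, inhibitors of cysteine cathepsins, stood on opposite sides. Cstb, the intracellular cystatin B, had a scaled signal of 91.5 on the senecionine array, against 36.6 on the control array, and was 2.50-fold higher (log2 ratio 1.32 ± 0.20). Cst3, the secreted cystatin C, had 138 after senecionine and 278 in the control on its brighter probe, 2.02-fold lower (-1.01 ± 0.20). Its other probe gave 109.6 after senecionine and 297 in the control, a log2 ratio of -1.44 ± 0.20. The brighter Cst3 probe thus sits at the 2-fold line within its spot error, while the other lies past the line by more than that. The log2 ratio of the brighter probe was -0.47 with quantile normalization and -0.62 with cyclic loess, both within 2-fold.

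**Figure D2:**
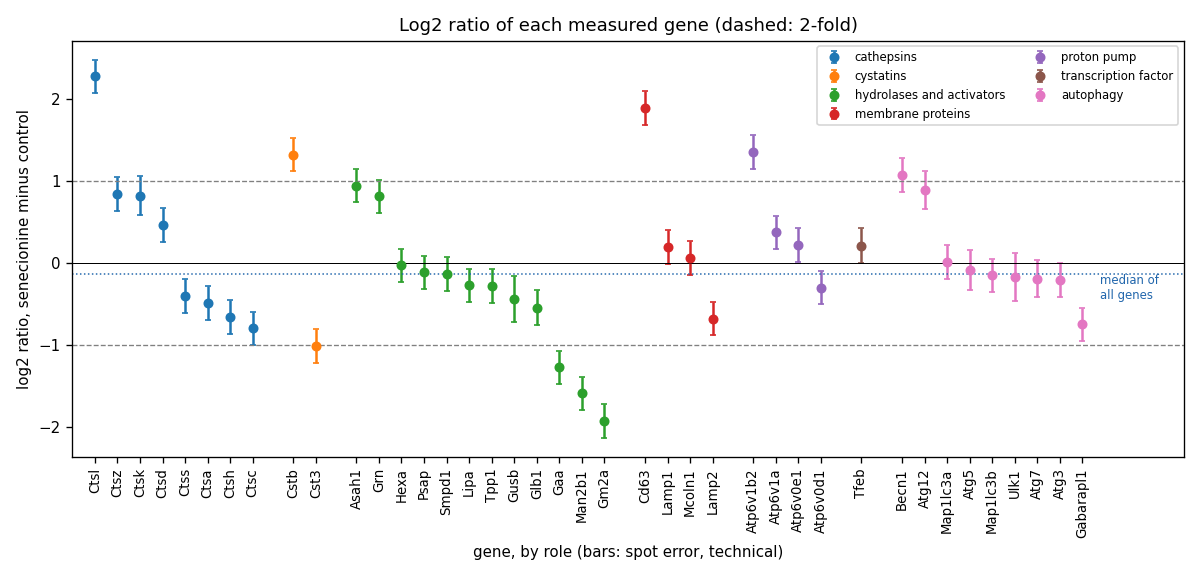
Log2 ratio (senecionine minus control) of each of the 40 measured genes, ordered within its role, with spot error as bars (technical error, 1 array per group). Dashed lines mark 2-fold and the dotted line the median of all measured genes at -0.14. Within cathepsins, cystatins, hydrolases, membrane proteins, proton pump subunits and autophagy genes the points lie on both sides of 0.

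Of 12 hydrolases and activators measured, 3 were lower by 2-fold or more (25%, against 17.7% of all genes), none was higher by that size, and the median log2 ratio was -0.28. Of the 12 ratios 10 were negative, and 6 with normexp correction, where the median was 0.02. Gm2a, the activator protein that presents GM2 ganglioside to hexosaminidase A, had a scaled signal of 1.62 on the senecionine array, against 6.13 on the control array, and was 3.79-fold lower (log2 ratio -1.92 ± 0.20). Man2b1, the acid alpha-mannosidase, had 2.37 after senecionine and 7.13 in the control, and was 3.01-fold lower (-1.59 ± 0.20). Gaa, the acid alpha-glucosidase that degrades glycogen, had 3.44 after senecionine and 8.30 in the control, and was 2.41-fold lower (-1.27 ± 0.20). These 3 genes kept their side of 2-fold in every alternative scaling, background correction, filter and probe rule tried.

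Some of these enzymes and activators act on sphingolipids. Asah1, the acid ceramidase, had a scaled signal of 7.97 after senecionine and 4.14 in the control (log2 ratio 0.94 ± 0.21), just under 2-fold. It passed 2-fold with cyclic loess (1.05), with normexp background correction (1.06) and in the authors' deposited table (log2 difference 1.09). Smpd1, the acid sphingomyelinase, had 68.1 after senecionine and 74.7 in the control (-0.13 ± 0.20), a difference within its spot error. Its ratio was positive with quantile normalization (0.20), cyclic loess (0.17) and normexp correction (0.17). Psap, the precursor of the saposins that help these enzymes, had a log2 ratio of -0.12 ± 0.20, and Hexa, the alpha subunit of hexosaminidase A, -0.03 ± 0.20, so the enzyme subunit lay within its spot error while its activator Gm2a was lower.

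Grn, progranulin, a secreted and lysosomal growth factor that is abundant in macrophages, had a scaled signal of 28.7 after senecionine and 16.3 in the control (log2 ratio 0.81 ± 0.20). It lay within 2-fold here, and past it with cyclic loess (1.02) and in the authors' deposited table (1.08). The sugar hydrolases Glb1 (beta-galactosidase) and Gusb (beta-glucuronidase) had log2 ratios of -0.55 ± 0.21 and -0.44 ± 0.28. Lipa, the acid lipase that frees cholesterol from lipoproteins, had -0.27 ± 0.20, and the peptidase Tpp1 -0.28 ± 0.21. All 4 lay below 0 by more than their spot error and within 2-fold, though Lipa was at 0.05 with normexp correction.

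Gusb shows the spread of repeated spots directly, since its probe was printed 10 times on each array. The scaled signals ran from 0.242 through a median of 0.316 to 0.381 on the senecionine array, and from 0.304 through 0.433 to 0.534 on the control array. The spots of the 2 arrays overlapped. Their SD on the log2 scale was 0.21 after senecionine and 0.30 in the control (10 spots each, within 1 array). Gla, the alpha-galactosidase A, was detected after senecionine alone, at 0.286, against 0.177 in the control. The ratio of these signals was 1.61-fold (log2 ratio 0.69 ± 0.43). Ppt1 had no probe that could be matched.

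Membrane proteins were represented by 4 measured genes. Of these, Cd63 was higher by 2-fold or more and none was lower by that size. Over all genes 11.2% were higher and 17.7% lower, and 4 genes are too few to set against these shares. Cd63, a tetraspanin of late endosomes, lysosomes and secreted vesicles, had a scaled signal of 17.6 on the senecionine array, against 4.74 on the control array. It was 3.71-fold higher (log2 ratio 1.89 ± 0.20). The structural glycoproteins Lamp1 and Lamp2 differed from it and from each other. Lamp1 had 16.0 after senecionine and 14.0 in the control (0.20 ± 0.20), and Lamp2, which as its A form is the receptor of chaperone-mediated autophagy, 14.2 after senecionine and 22.7 in the control (-0.68 ± 0.20). Mcoln1, the calcium channel of the lysosome, had a log2 ratio of 0.06 ± 0.20. Lamp3, known from mature dendritic cells, was detected after senecionine alone, but its scaled signal was 0.167 there and 0.301 on the control array. No fold is given for it.

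The proton pump that acidifies the lysosome has a membrane sector and a soluble ATP-cleaving head. Of 4 measured subunits, Atp6v1b2 was higher by 2-fold or more, none was lower by that size, and the median log2 ratio was 0.30. These 4, too, are too few to set against the 11.2% higher and 17.7% lower of all genes. Atp6v1b2, a nucleotide-binding subunit of the head, had a scaled signal of 5.39 on the senecionine array, against 2.11 on the control array, on its brighter probe, and was 2.56-fold higher (log2 ratio 1.35 ± 0.21). Its other probe gave 1.41 ± 0.21. Atp6v1a, the catalytic subunit of the head, had log2 ratios of 0.37 ± 0.20 and 0.76 ± 0.21 on the 2 probes measured on both arrays. In the membrane sector, Atp6v0e1 had 0.22 ± 0.20. Atp6v0d1 had a scaled signal of 5.32 after senecionine and 6.55 in the control (-0.30 ± 0.20). Atp6v1h, a regulatory subunit of the head, was detected on neither array. The 2 measured subunits of the head listed here had positive ratios, while those of the membrane sector lay on either side of 0. Among the other pump subunits, given below, both sectors had ratios on either side of 0.

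Tfeb itself had a scaled signal of 1.26 after senecionine and 1.09 in the control on its measured probe, a difference within its spot error (log2 ratio 0.21 ± 0.21). With normexp correction the ratio was -0.20. TFEB is known to be controlled mainly through phosphorylation and its place in the cell, which these arrays do not measure.

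Promoters of 38 of the 47 genes are given by RefSeq on build GRCr8, as 250 bases before and 50 after each gene's start. Asah1, Atp6v1b2, Atp6v1h, Becn1, Ctsb, Hexa, Map1lc3a, Ppt1 and Psap had no entry. The motifs searched on both strands were the 8-base core of the CLEAR element, TCACGTGA, the 7-base element TCACGTG within it, and the E-box CACGTG. Each shorter motif lies within the longer ones, so the matches overlap. The core was found in 6 of the 38 promoters (15.8%), against 0.777% of all 33469 promoters of the same length. The 7-base element was found in 9 (23.7%, against 3.20% of all promoters) and the E-box in 11 (28.9%, against 6.42%). The genes were listed for their lysosomal roles, and a match describes letters only.

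The 6 promoters with the core are printed here with 16 bases on each side and the core in capitals, since these are the listed genes whose promoters carry the motif named for TFEB. Position is that of the core's first base, counted from 0 at the gene's start.

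Ctsd, chr1:206968809-206968848, minus strand, position -11: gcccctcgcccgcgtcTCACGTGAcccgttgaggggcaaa

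Atp6v0e1, chr10:17007110-17007149, minus strand, position 23: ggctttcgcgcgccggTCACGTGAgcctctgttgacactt

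Atg3, chr11:69159274-69159313, minus strand, position -17: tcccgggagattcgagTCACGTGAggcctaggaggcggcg

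Mcoln1, chr12:6358245-6358284, plus strand, position 3: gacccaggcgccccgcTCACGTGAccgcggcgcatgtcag

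Lamp1, chr16:83075106-83075145, minus strand, position -66: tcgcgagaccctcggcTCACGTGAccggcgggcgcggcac

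Lamp1, chr16:83075079-83075118, minus strand, position -39: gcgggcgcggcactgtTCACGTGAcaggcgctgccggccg

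Atp6v0d1, chr19:50357278-50357317, minus strand, position -53: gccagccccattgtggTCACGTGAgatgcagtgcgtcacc

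None of the 6 genes with the core was past 2-fold in either direction. Their log2 ratios ran from -0.30 (Atp6v0d1) to 0.47 (Ctsd) with a median of 0.13. By 2-fold or more, 11.2% of all measured genes were higher and 17.7% lower, and 6 genes are too few to set against these shares. Of the 28 measured genes whose promoters lack the core, 3 were higher and 4 lower by 2-fold or more, with ratios from -1.92 to 2.28 and a median of -0.23. Lamp1 holds the core at 2 places and had a log2 ratio of 0.20 ± 0.20. Whether the groups with and without the core differ was not tested.

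Among the genes past 2-fold, Cstb and Gaa hold the 7-base element without the full core, 1 on the higher and 1 on the lower side. They are shown with the 7 matched bases in capitals.

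Cstb, chr20:10247200-10247238, minus strand, position -23: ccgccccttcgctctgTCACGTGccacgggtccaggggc

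Gaa, chr10:105028272-105028310, plus strand, position -67: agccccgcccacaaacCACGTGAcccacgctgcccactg

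Cd63 holds an E-box only, at position -190. The promoter of Ctsl, the gene with the highest ratio, holds none of the 3 motifs in this window and is shown whole for comparison.

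Ctsl, chr17:769854-770153, plus strand: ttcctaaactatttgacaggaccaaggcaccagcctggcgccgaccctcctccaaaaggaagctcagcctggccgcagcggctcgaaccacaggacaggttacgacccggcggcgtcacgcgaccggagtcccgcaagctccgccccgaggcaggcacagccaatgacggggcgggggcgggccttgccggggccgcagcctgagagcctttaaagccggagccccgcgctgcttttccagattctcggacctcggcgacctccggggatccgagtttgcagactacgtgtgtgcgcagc

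**Figure D3:**
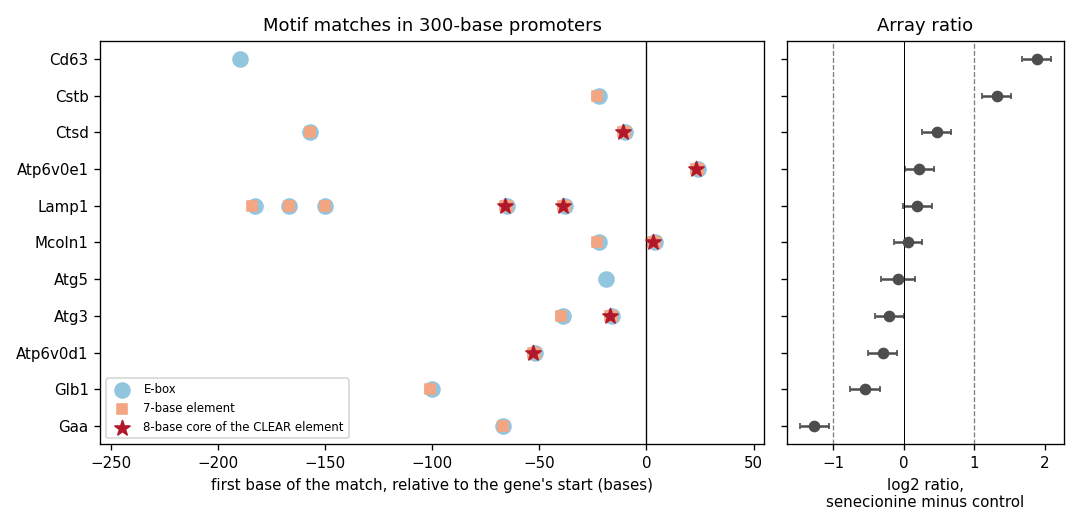
Left, position of each match to the E-box, the 7-base element and the CLEAR core relative to the gene's start (bases) in the 11 promoters with any match. Right, the log2 ratio of the same genes (senecionine minus control) with spot error as bars and dashed lines at 2-fold. The 6 genes with the core lie between -0.30 and 0.47.

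Of 9 autophagy genes measured, Becn1 was higher by 2-fold or more (11.1%, against 11.2% of all genes). None was lower by that size, against 17.7% of all genes. The median log2 ratio was -0.15, and -0.14 over all measured genes. Becn1, beclin 1 of the lipid kinase complex that starts the autophagosome, had a scaled signal of 3.62 on the senecionine array, against 1.73 on the control array, on its brighter probe. It was 2.09-fold higher (log2 ratio 1.07 ± 0.21), and its other probe gave 1.20 ± 0.21. The brighter probe lay just short of 2-fold with median scaling (0.94) and normexp correction (0.99).

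The conjugation genes attach ubiquitin-like proteins to the growing membrane. Atg12, the ubiquitin-like partner of Atg5, had scaled signals of 1.61 after senecionine and 0.873 in the control on its brighter probe (log2 ratio 0.88 ± 0.23), and 0.34 ± 0.22 on the other. Atg5 had a log2 ratio of -0.08 ± 0.24, Atg7, the enzyme that activates both conjugates, -0.19 ± 0.23, and Atg3, which carries LC3 to its lipid, -0.20 ± 0.20. Atg5 and Atg7 differed by less than their spot errors and Atg3 by about as much.

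The proteins that are conjugated to lipid on the autophagosome belong to the LC3 and GABARAP family. Map1lc3a had scaled signals of 40.6 after senecionine and 40.2 in the control, a log2 ratio of 0.02 ± 0.20. Map1lc3b had -0.15 ± 0.20 and -0.54 ± 0.20 on its 2 probes. Gabarapl1 had 33.1 after senecionine and 55.6 in the control (-0.75 ± 0.20), the lowest ratio of the measured autophagy genes and within 2-fold. Gabarap lay on a spot marked as non-uniform on both arrays, with a log2 ratio of -0.23 ± 0.20 that was not counted. None of these had a ratio on the higher side beyond its spot error.

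The kinase Ulk1, which starts autophagy when nutrients are short, was dim, at 0.296 after senecionine and 0.332 in the control (log2 ratio -0.17 ± 0.29). Wipi1, which binds the lipid made by the Becn1 complex, was detected after senecionine alone, at 0.175, against 0.124 in the control. The bound of 1.41-fold lies within the spot error of this probe (log2 ratio 0.50 ± 0.54), so no difference is read from it. With Gla and Lamp3, 3 of the 44 listed genes that had a usable probe were detected after senecionine alone, against 19.1% of all 13667 genes. None of the 44 was detected in the control alone, a class that held 1.24% of all genes.

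**Figure D4:**
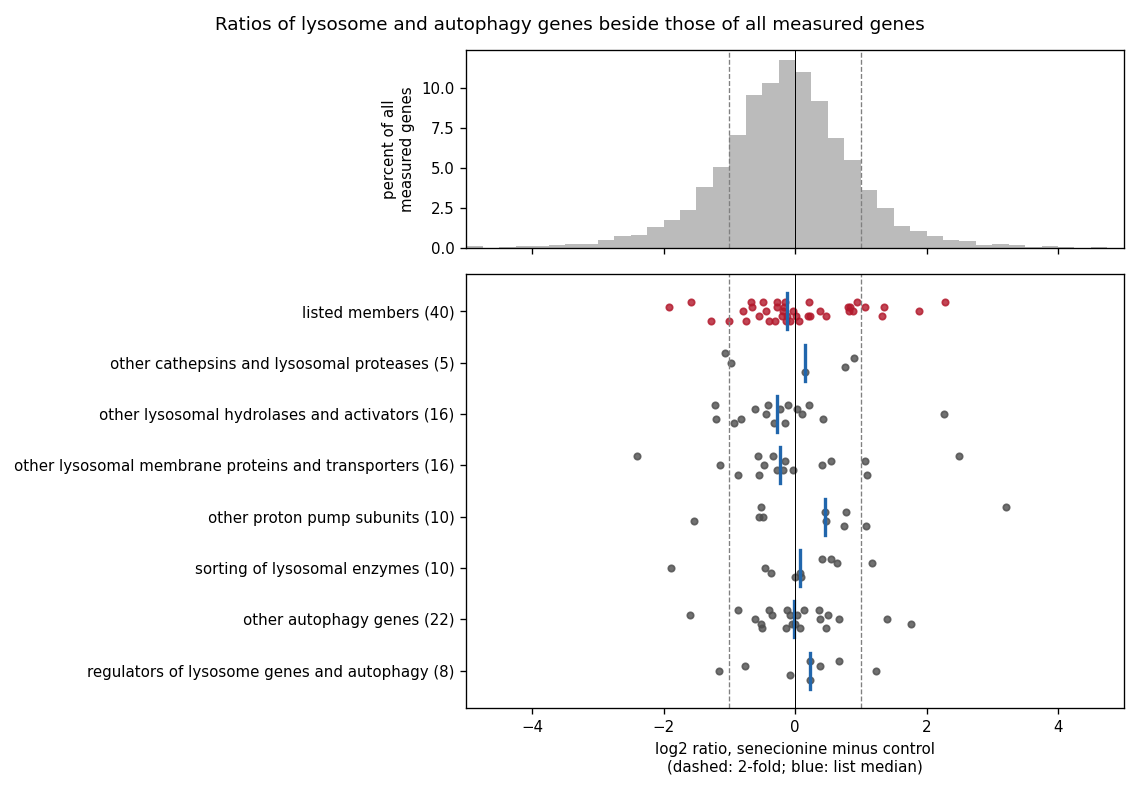
Top, percent of all 7809 measured genes by log2 ratio (senecionine minus control; genes beyond 5 in either direction are not shown). Bottom, the ratio of each measured gene of the 40 listed genes (red) and of 7 lists of other lysosome and autophagy genes (grey), with list medians in blue. Most points of each list lie within the dashed 2-fold lines, as do 5551 of all 7809 measured genes.

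Other genes of the same pathways gave a similar picture. Of 131 such genes, 87 were measured, with a median log2 ratio of -0.04. By 2-fold or more, 10 were higher (11.5%, against 11.2% of all genes) and 9 lower (10.3%, against 17.7%). The highest was Atp6v1d, a stalk subunit of the proton pump, with a scaled signal of 3.02 after senecionine and 0.328 in the control. It was 9.21-fold higher (log2 ratio 3.20 ± 0.28), but the control signal is dim, which limits the precision of this fold. Among 10 other pump subunits measured, Atp6v1c1 also passed 2-fold on the higher side (1.08 ± 0.23) and Atp6v0e2 lower (-1.53 ± 0.21), and the median was 0.46. Atp6v1f of the head had -0.55 ± 0.20 and Atp6v0b of the membrane sector 0.46 ± 0.20, so ratios of each sector lay on both sides of 0.

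Scarb2, the membrane protein that delivers glucocerebrosidase to the lysosome, was 5.66-fold higher, with 2.87 after senecionine and 0.507 in the control. Of 16 other membrane proteins, 3 were higher by 2-fold or more, the others being Cd68 and Laptm5 of macrophages and other blood cells, at log2 ratios of 1.06 and 1.09. Abca2, a lipid transporter known from oligodendrocytes, was 5.30-fold lower, at 3.82 after senecionine and 20.2 in the control. Lamtor2, of the platform that recruits mTORC1, was the other lower gene (-1.14 ± 0.20). Membrane genes thus lay on both sides, with a median of -0.23.

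Of 16 other hydrolases, Manba, the beta-mannosidase, was 4.79-fold higher, with 2.41 after senecionine and 0.504 in the control. The acid phosphatase Acp2 and Plbd2 had log2 ratios of -1.22 and -1.20 and were the 2 lower genes. Manba and Man2b1, which act on beta-linked and alpha-linked mannose, thus lay on opposite sides. Of 5 other proteases Ctsf was lower past 2-fold (-1.06 ± 0.20) and Scpep1 just short of it (-0.98 ± 0.20), while the asparaginyl protease Lgmn had 0.89 ± 0.20.

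Of 10 genes that sort lysosomal enzymes, Igf2r, the large mannose 6-phosphate receptor, was 2.25-fold higher (39.9 after senecionine, 17.7 in the control). The sorting receptor Sort1 was 3.69-fold lower (log2 ratio -1.88 ± 0.33), from dim signals of 0.159 after senecionine and 0.586 in the control. The retromer subunit Vps26a had 0.64 ± 0.21, within 2-fold. Of 22 other autophagy genes, Bnip3 was 3.39-fold higher (25.5 after senecionine, 7.52 in the control). Bnip3 is a mitochondrial receptor for autophagy known to be induced by low oxygen. Vmp1 had a log2 ratio of 1.39 ± 0.20. Tecpr1 was 3.03-fold lower (-1.60 ± 0.23), with a dim signal of 0.276 after senecionine. Sqstm1, the cargo receptor p62, had log2 ratios from -0.40 to -0.11 on its 4 probes. Of 8 regulators, Rragc, a GTPase upstream of mTORC1, had 1.23 ± 0.25, and Prkaa2, a catalytic subunit of AMP kinase, -1.16 ± 0.23. No other regulator measured passed 2-fold.

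Marker genes of the cell types in liver also differed in signal between the arrays. Hepatocyte markers with a probe were detected on each array in 9 of 9 cases, and 6 more had no usable probe. The summed scaled signal was 2399.6 after senecionine and 4483 in the control. Much of each sum is Fgb (887 and 1126) and Serpina1 (826 and 1224). Of the 9, 7 were lower by 2-fold or more, among them Alb by 2.20-fold. Fgb had a log2 ratio of -0.34 ± 0.20 on its brighter probe and 0.58 ± 0.20 on the other. Neutrophil markers with a probe were detected in 10 of 10 cases on the senecionine array and 6 of 10 on the control array, with sums of 83.2 and 8.24. Much of the senecionine sum is S100a8 and S100a9, with 34.1 and 33.0, against 0.440 and 0.358 in the control. Of 6 neutrophil markers measured, 4 were higher by 2-fold or more and Prtn3 was 2.53-fold lower. Macrophage markers were detected in 18 and 15 of 19 cases, with sums of 449 after senecionine and 401 in the control. Lgals3 makes up much of the higher sum, with 146 after senecionine and 19.4 in the control. Of 15 measured, 4 were higher by 2-fold or more (Gpnmb by 12.6-fold, Lgals3, Cd68 and Tyrobp) and 6 lower by that size, with a median log2 ratio of -0.58. The lower ones were Clec4f of Kupffer cells (8.98-fold), C1qa, C1qb, C1qc, Vsig4 and Adgre1, and Cd163 was detected on neither array. Sinusoidal endothelial markers summed to 41.3 after senecionine and 118 in the control (8 and 7 of 10 detected, Pecam1 and Tek on neither). Stellate cell and fibroblast markers summed to 167 and 235 on the same arrays (10 and 9 of 10 detected). Here too the sum follows a bright probe, Col3a1, with 80.6 after senecionine and 148 in the control. Of 9 measured, Dcn, Tagln, Vim and Des were higher by 5.43-fold to 11.8-fold and Lrat was 5.02-fold lower, with a median log2 ratio of 0.43.

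Markers of neurons and glia, which do not belong to liver, were detected in 14 of 20 cases on each array. Their summed scaled signal was 5.80 after senecionine and 86.5 in the control. Most of the control sum is Tubb3, with 2.79 after senecionine and 55.7 in the control, and Mbp comes next, with 0.121 and 10.5. Of these markers 12 were measured, and 10 of them were lower by 2-fold or more. Stmn2, Gad1, Slc17a7 and S100b were detected on neither array. The part of these marker differences in the ratios of the lysosome and autophagy genes, among them the higher Cd63 and Ctsl and the lower Gm2a, Cst3 and Abca2, was not tested.

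The authors' deposited table, a list of probes selected at 2-fold, holds 10 of the 47 genes, of which 7 are listed as higher after senecionine and 3 as lower. Of all 3516 named genes with a probe in that list, 57.8% were higher and 42.2% lower. The authors' deposited table gives Ctsl a log2 difference of 2.62, Cd63 2.14, Cstb 1.64, Gm2a -1.88, Man2b1 -1.53 and Gaa -1.19. For Atp6v1b2 the authors' deposited table gives 1.43 and 1.45 on 2 probes and for Becn1 1.12 and 1.24. Cst3 is not listed there.

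**Figure D5:**
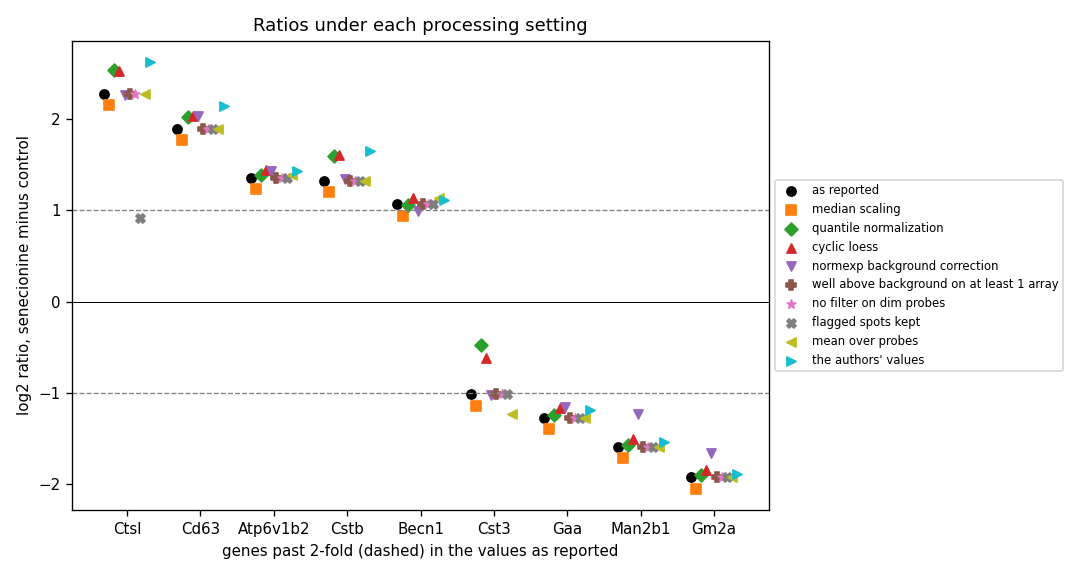
Log2 ratio (senecionine minus control) of the 9 genes past 2-fold as reported (black) and under each alternative scaling, background correction, filter, probe rule and the authors' values. No gene crosses 0. Ctsl lies at 0.92 when spots marked as non-uniform are kept, and Cst3 lies at -0.47 with quantile normalization and -0.62 with cyclic loess.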

How the data were processed

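Agilent Feature Extraction 10.7.3.1 was the software from which the authors took spot intensity values, per the file headers and the submitters' processing notes. The software subtracted background and detrended each array, and the deposited intensity values are not scaled between arrays. The array design names build rn4. The authors' deposited series table holds log2 values of 7404 probes with column medians of 6.10 (senecionine) and 6.03 (control). No source used here says how it was scaled.

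Here, log2 processed signal less the array's 75th percentile was averaged over a probe's spots. Spots with an outlier mark on either array were left out (497 marked on the senecionine array, 522 on the control array), and none was saturated. Of 40516 probes, 17250 were named through unversioned RefSeq accessions in the RefSeq table of GRCr8. For a gene detected on 1 array, the bound divides its signal there by the dim array's own value or by that array's lowest detected signal, whichever is larger. The software called 64.1% of non-control spots detected after senecionine and 44.4% in the control. The number of arrays limits the precision. Genes were counted at 2-fold. The counting was tested on simulated data, copies of the control array with spot error as the only noise. These hold no spread between pools, so the test covers the counting rule only.

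Every listed gene is accounted for by its detection, and those past 2-fold and at the ends of each role are given with both signals. The other lists are given by counts and up to 3 members each with the largest ratios, and any further gene named was chosen after its values were seen. Members and lists were chosen with earlier results of these data known. The planned normexp correction (offset 50) was run on the median signals of spots, because mean signals are not among the columns used here. The work was done in R 4.3.3 with limma 3.58.1 and in Python 3.11.15 with pandas 2.3.3, numpy 2.4.6 and matplotlib 3.10.9.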

Additional observations from a re-analysis of the deposited data

Results flagged for a closer look

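Signal was present in spots that the comparison left out because both arrays marked them as non-uniform. On these spots Ctsb had a log2 ratio of 0.33 and a further Ctsl probe 0.92, each above its spot error of 0.20. The Ctsl value lies well under the 2.28 of the Ctsl probe that was used. The cause was not tested.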

How the results depend on the processing

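No paired analysis was possible because each group is 1 array. The 5 higher and 4 lower genes stayed within 1.5 times those counts under every alternative except the fold threshold: 10 and 8 at 1.5-fold, and 2 and 2 at 3-fold. Of the 87 other genes of the pathway, 10 higher and 9 lower at 2-fold became 17 and 17 at 1.5-fold and 4 and 3 at 3-fold. Their lower count was 4 with normexp correction. The higher count was 18 when detection on 1 array sufficed and 18 with no filter on dim probes, each over a larger set than the 87. Of all genes, 22.6% and 17.5% were higher under these 2 settings, against 11.2% as reported. In the authors' values it was 17, over 24 genes with a probe in a list selected at 2-fold, where 57.8% of all genes were higher. No detection rule was applied to those 24 genes, so they need not be among the 87. The authors' ratios also lay above those used here for all 10 listed genes given there, such as Grn with 1.08 against 0.81. These higher counts thus rest on other sets or other values, and no change within the 87 genes is read from them. The median log2 ratio of the listed genes ranged from -0.25 (median scaling) to 0.00 (cyclic loess). The median of all genes was -0.26 with median scaling, against -0.14 as reported, a constant shift of every gene. With detection on 1 array sufficing, the median was -0.12 over the listed genes and 0.10 over all genes. No gene past 2-fold turned its sign under any alternative run. Dim genes such as Ulk1, Gusb and Gla are limited by their signal over background. The same holds for folds with a dim signal on an array, such as those of Atp6v1d, Sort1 and Tecpr1.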
